A study of Mus musculus with 10 samples.

Results

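The genes described here carry inhibitory and cholinergic transmission: receptor subunits for GABA, glycine and acetylcholine, the enzymes and transporters that make and load these transmitters, and the scaffold protein gephyrin. The list of 34 genes was given by symbol, and all 34 were found among the 26089 RefSeq genes with a curated transcript on the autosomes and chromosome X of mm10. A gene was counted as having a peak when a REST peak overlapped its body or lay within 5 kb of one of its start sites. ChIP-seq, in which chromatin bound by a protein is immunoprecipitated and sequenced, had been used to map REST in bulk cortex of female mice at 11 months of age, with an antibody that recognises the C-terminus of the protein. In the 3xTg line, a model of Alzheimer's disease, the APPSwe and tauP301L transgenes are combined with a mutation knocked into PS1. The genetic background is mixed, and wild-type (WT) littermates were the controls. There were 4 ChIP replicates per genotype, each made from 4 pooled cortices, and 1 input library per genotype. The 4 replicates of a genotype were combined into 1 peak list, so no value below has a replicate error, and no difference between genotypes was tested.

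GABA and glycine open chloride channels and so hold back firing in the adult brain, while GABA-B receptors act more slowly through G proteins. Acetylcholine reaches the cortex mainly from neurons of the basal forebrain and acts on nicotinic receptors, which are ion channels, and on muscarinic receptors, which couple to G proteins. REST is a zinc finger repressor that binds the RE1 element and is known for keeping neuronal genes silent in cells outside the nervous system, and many genes for channels and receptors carry an RE1 element near their start site.

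The WT list held 3006 peaks and the 3xTg list 5077 peaks. The lists ended at different levels: the lowest fold enrichment was 6.003 in WT and 8.50 in 3xTg, and the lowest −log10 q was 13.3 in WT and 29.0 in 3xTg. A gene could therefore enter the WT list at an enrichment that the 3xTg list does not contain, and a peak found in 1 list is described below as WT-only or 3xTg-only with this limit. The lists hold no read numbers, and the depth of the libraries was not analysed here. They hold no expression values either, and the makeup of the bulk cortex was not checked against cell type markers.

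REST peaks were found at 14 of the 34 genes in at least 1 list, 41.2%, against 15.7% of all RefSeq genes. The 34 genes were chosen with earlier results of these data known, so this share and those below describe the list and test nothing. In WT cortex 9 genes had a peak, 26.5% of the 34, against 9.3% of all RefSeq genes. In 3xTg cortex 13 genes had a peak, 38.2%, against 14.2% of all RefSeq genes. The genes with a peak in both lists were Gabra4, Gabrb1, Gabrb2, Gabbr2, Glra1, Chrnb2, Chrm3 and Chrm4, which is 8 of 34, beside 7.78% of all genes. Another 5 genes, Gabrg3, Gabrd, Gabbr1, Gphn and Chrm1, had a 3xTg peak and no WT peak, beside 6.42% of all genes. Glrb alone had a WT peak and no 3xTg peak, beside 1.52% of all genes. At the common lowest value of 8.50 in both lists, 4 members had a WT peak, against 3.01% of all genes. With lists of equal size 9 members had a peak in each, against 9.3% of all genes in WT and 8.82% in 3xTg. The 8 genes with a peak in both lists became 3 with fold enrichment over 10 and 4 at the common lowest value. The share of all genes with a peak in both lists is not given at these limits. The share of all genes with a WT peak fell there too, from 9.3% to 1.91% and 3.01%. When peaks had to overlap by 50% of each, all 8 genes kept a peak in both lists, and 5 held a pair that did.

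A rule that counts any peak in the gene body favours long genes, and these genes are long. Their median length was 53.5 kb, against 13.5 kb over all RefSeq genes, and the 14 genes with a peak had a median of 91.3 kb against 37.0 kb for the 20 without. All 6 members longer than 200 kb (Gabrb1, Gabrb2, Gabrg3, Gabbr2, Gphn and Chrm3) had a 3xTg peak, as did 48.5% of the 979 RefSeq genes of that length. The shortest class showed a peak share above its own background as well. Of the 9 members of at most 20 kb, 4 had a 3xTg peak and 2 a WT peak, while 9.0% and 6.16% of the 15666 RefSeq genes of that length did. In between, a 3xTg peak stood at 1 of 8 members of 20 to 50 kb, at 2 of 6 of 50 to 100 kb and at 0 of 5 of 100 to 200 kb, with 14.0%, 22.7% and 32.9% of all genes in these classes. A WT peak stood at 0 of 8, 3 of 6 and 0 of 5, with 8.95%, 14.4% and 20% of all genes. Among the members over 200 kb, 4 of 6 had a WT peak, against 32.3%.

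When only peaks within 5 kb of a start site were counted, which depends less on length, 4 of the 34 genes had a WT peak against 6.72% of all RefSeq genes, and 6 had a 3xTg peak against 9.87%. The 4 were Gabbr2, Glra1, Chrnb2 and Chrm4. Gabrd and Chrm1 joined them in 3xTg. The members' shares of 11.8% in WT and 17.6% in 3xTg thus stood closer to the background than those for gene bodies, and rest on few genes. With a fold enrichment over 10, 2 members had a WT start-site peak, against 1.21% of all genes, and at the common lowest value of 8.50 again 2, against 1.91%.

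**Figure D1:**
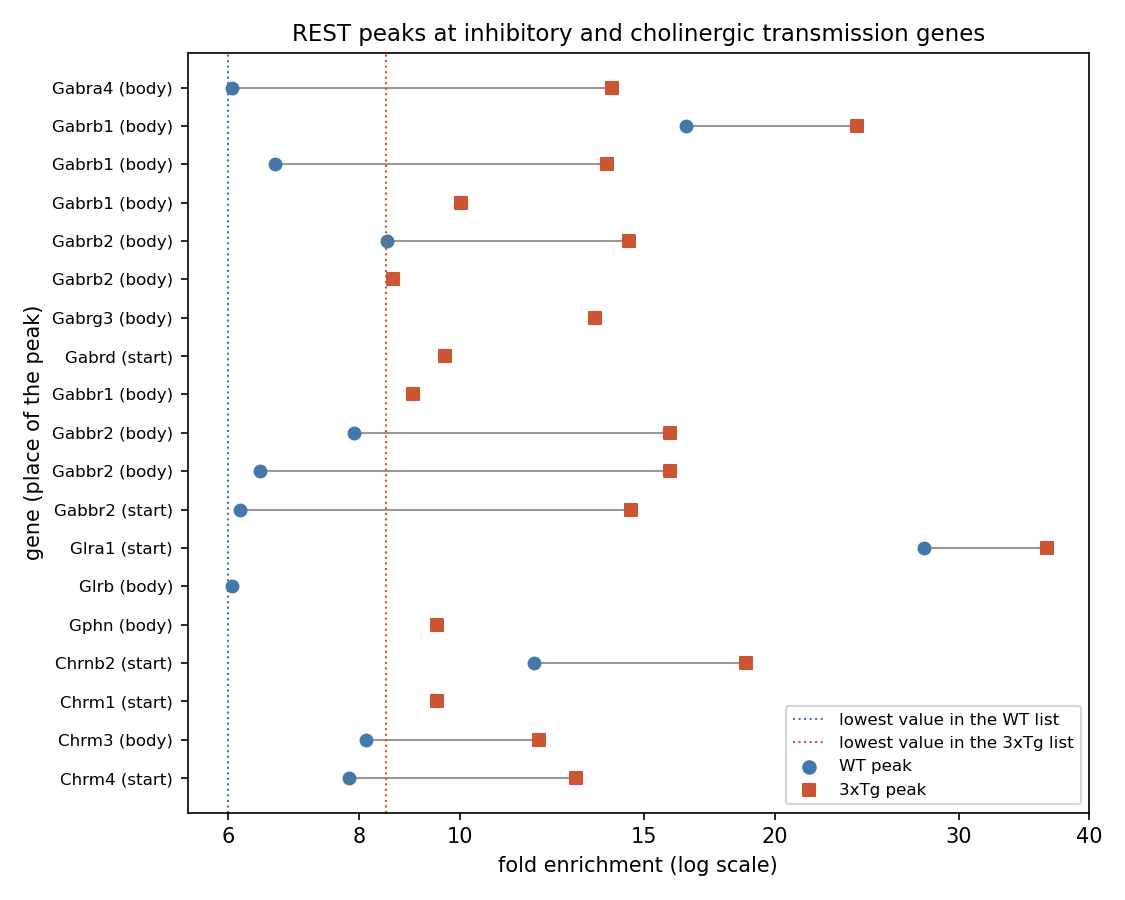
Fold enrichment of each REST peak at the 14 genes with a peak, on a log scale, with WT peaks as circles and 3xTg peaks as squares; a line joins overlapping peaks, "start" marks peaks within 5 kb of a start site, and dotted lines mark the lowest value of each list. The peak at the start of Glra1 stands highest in both lists, at 27.8 and 36.4, and several WT partners lie close to the lower end of their list.

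Of the 11 GABA-A and GABA-C receptor subunit genes, 3 had a WT peak and 5 a 3xTg peak, 27.3% and 45.5%, beside 9.3% and 14.2% of all RefSeq genes. Within 5 kb of a start site, 0 of 11 had a WT peak and 1 a 3xTg peak, beside 6.72% and 9.87%. Among the 5, Gabrb1, Gabrb2 and Gabrg3 were longer than 200 kb, and 48.5% of all genes of that length had a 3xTg peak. The strongest peak of the family lay in Gabrb1, which encodes a beta subunit of the GABA-A receptor. Its highest 3xTg peak, chr5:71976268-71977383, had a fold enrichment of 24.0 and ranked 284 of 5077, and the WT peak over it had 16.5 and ranked 149 of 3006. The summit lay in intron 5, 276757 bases from the nearest Gabrb1 start site and 191500 bases from the nearest start site of any gene, that of Commd8. Another shared peak in the same intron, chr5:71969928-71971083, had 13.8 in 3xTg and 6.65 in WT. Intron 4 held a 3xTg-only peak, chr5:71827715-71829488, at 10.01.

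Gabra4, the gene for an alpha subunit found largely in extrasynaptic receptors, shares its start region with Gabrb1: the start sites of the pair lie 387 bases apart on opposite strands. No peak lay within 5 kb of either. The Gabra4 peak was in intron 8, at chr5:71608567-71609392, with 14.0 in 3xTg and 6.05 in WT, and its WT value was among the lowest 10% of that list by rank (94.9% of the way down). Gabra2 and Gabrg1, which encode an alpha and a gamma subunit, belong to the same chromosome 5 cluster and had no peak. Their nearest 3xTg peaks lay 512718 and 765950 bases from the gene body, so the peaks of the cluster fell within its Gabra4 and Gabrb1 end.

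**Figure D2:**
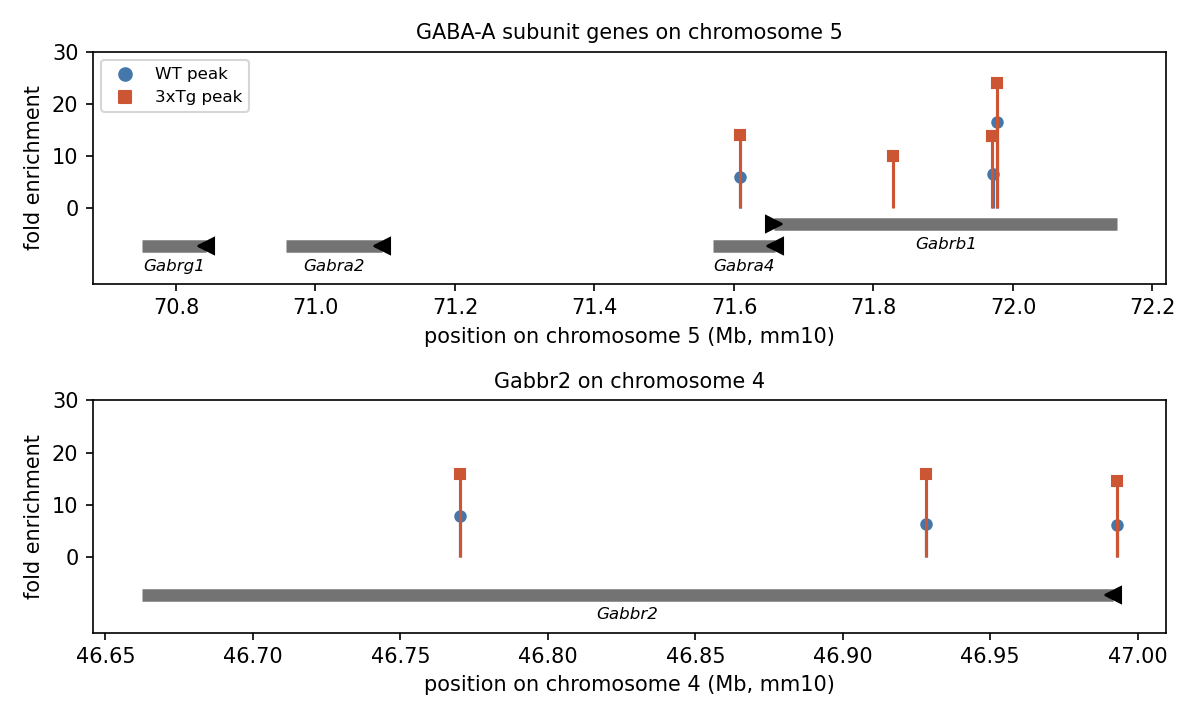
Positions of REST peak summits (x axis, Mb of mm10) and their fold enrichment (y axis) over the GABA-A subunit cluster on chromosome 5 and over Gabbr2 on chromosome 4; grey bars are gene bodies, black arrowheads mark start sites and point along the gene, circles are WT and squares 3xTg. All 4 of the 3xTg peaks in the chromosome 5 cluster lie inside Gabra4 or Gabrb1, away from the start sites, and 1 of the 3 Gabbr2 peaks lies at the start.

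Gabrb2 encodes the beta subunit of the most common GABA-A receptors. It had a shared peak in intron 8, chr11:42609091-42610180, with 14.5 in 3xTg and 8.51 in WT. Intron 6 held a 3xTg-only peak, chr11:42592256-42592915, whose value of 8.63 was close to the lowest of that list. Gabra6, an alpha subunit gene of cerebellar granule cells on the same chromosome, had no peak. Gabrg3, a gamma subunit gene of 671 kb and the longest of the 34, had 1 peak, a 3xTg-only one in intron 2 at chr7:57365615-57366420. Its fold enrichment of 13.5 was the highest among the 3xTg-only member peaks. Gabra5, next to it on chromosome 7, encodes an alpha subunit of extrasynaptic receptors and had no peak.

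Gabrd was the 1 GABA-A subunit gene with a peak at its start. It encodes the delta subunit, which forms extrasynaptic receptors that carry tonic inhibition. The peak was 3xTg-only, chr4:155396883-155398099, with a fold enrichment of 9.67, and its summit lay in intron 1, 381 bases downstream of the start site. Gabrr1 and Gabrr2, neighbouring genes for the rho subunits of GABA-C receptors known from the retina, had no peak.

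Both subunits of the GABA-B receptor had a 3xTg peak and 1 had a WT peak, beside 14.2% and 9.3% of all RefSeq genes. With 2 genes no share can be read from this. Gabbr2, whose product couples the receptor to its G protein, had 3 shared peaks. In 3xTg they reached similar values: 15.9 at chr4:46769775-46770734 in intron 7, 15.9 at chr4:46927575-46929085 in intron 1, and 14.6 at chr4:46992035-46993433, where the summit lay 1335 bases upstream of the start site. The WT peaks at these places had 7.92, 6.43 and 6.16. Gabbr1, whose product binds GABA, had a single 3xTg-only peak in intron 11, chr17:37061659-37062764, at 9.01.

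Among the 4 genes for glycine receptors and gephyrin, Glra1 had the highest peak of all 34 genes in both lists. Glra1 encodes the alpha subunit of the main adult glycine receptor of spinal cord and brainstem. Its peak, chr11:55606710-55608545 in 3xTg and chr11:55607030-55608185 in WT, had a fold enrichment of 36.4 and ranked 83 of 5077 in 3xTg. In WT it had 27.8 and ranked 49 of 3006, so that it stood 1.63% of the way down either list. The 3xTg summit lay in the untranslated part of exon 1, 262 bases downstream of the start site.

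Glrb encodes the beta subunit that ties glycine receptors to gephyrin. It had the only WT-only peak, chr3:80893359-80893762 in intron 2, and at 6.05 that peak was near the lower end of the WT list and below every value in the 3xTg list. The nearest 3xTg peak lay 40157 bases from the gene. Gphn encodes gephyrin, the scaffold under inhibitory synapses, and had a 3xTg-only peak in intron 1, chr12:78332158-78332758, at 9.49. The nearest WT peak lay 20181 bases from Gphn. Glra3, another alpha subunit gene, had no peak.

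None of the 5 genes for synthesis and transport of GABA and glycine had a peak in either list, a count near the 9.3% and 14.2% of all RefSeq genes. Gad1 and Gad2 encode the enzymes that make GABA from glutamate. Slc32a1 encodes the vesicular transporter for GABA and glycine, and Slc6a5 and Slc6a9 encode the glycine transporters of the plasma membrane. The closest approach was at Slc32a1, where a WT peak lay 9060 bases from the gene body, and the nearest 3xTg peak lay 39795 bases away.

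Chrnb2 was the 1 gene with a peak among 6 nicotinic receptor subunit genes, 16.7% in each list. A count of 1 in 6 is near the 9.3% of all RefSeq genes in WT and the 14.2% in 3xTg. The product of Chrnb2 joins that of Chrna4 in the most common nicotinic receptor of the brain. The peak was shared, chr3:89763926-89765184 in 3xTg, with fold enrichments of 18.8 in 3xTg and 11.8 in WT. The 3xTg summit lay in the untranslated part of exon 1, 164 bases from the start site, and the WT summit lay 160 bases from the start site. Chrna4 had no peak. Neither did Chrna7, which forms receptors by itself, nor Chrna3, Chrna5 and Chrnb4, which sit together in 67.7 kb of chromosome 9 and encode subunits of ganglionic receptors.

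Of the 4 muscarinic receptor genes, 2 had a WT peak and 3 a 3xTg peak, beside 9.3% and 14.2% of all RefSeq genes. Shares of so few genes say little, and no difference from all genes was tested. Chrm4, whose receptor acts through inhibitory G proteins, had a shared peak with its summit upstream of the start. In 3xTg the peak covered 3125 bases, chr2:91919919-91923043, and ran across the start site into the gene. Its fold enrichment was 12.9, and its summit lay 819 bases upstream of the start site. In WT the peak covered 949 bases, all of them upstream of the start, with 7.82. Chrm1, the most abundant muscarinic receptor of the cortex, had a 3xTg-only peak at chr19:8665795-8666402 with 9.49, and its summit lay in intron 2, 2145 bases downstream of the start site. Chrm3 had a shared peak in intron 1, chr13:10235214-10235717, with 11.9 in 3xTg and 8.13 in WT, and the summit lay 125350 bases from the start site. Chrm2, which acts like Chrm4 through inhibitory G proteins, had no peak.

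Chat, the enzyme that makes acetylcholine, and Slc18a3, its vesicular transporter, form 1 locus on chromosome 14, where Slc18a3 lies inside Chat. No peak of either list fell in its 57.7 kb. The nearest 3xTg peak lay 85646 bases from Chat.

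Counted as peaks, the 34 genes held 12 WT peaks and 18 3xTg peaks. In the 3xTg list 11 of the 18 overlapped a WT peak by at least 1 base and 7 were 3xTg-only, against 51.0% 3xTg-only over all 3xTg peaks. In the WT list 1 of 12 was WT-only, against 16.7% over all WT peaks. Split by place, 2 of the 6 start-site peaks were 3xTg-only, against 47.6% of all 3xTg start-site peaks, and 5 of the 12 peaks in gene bodies farther than 5 kb from a start site were, against 55.2%. With these lists and at least 1 shared base, none of the members' shares of 3xTg-only peaks was above that of all peaks. The counts depended on where the lists ended and on the overlap asked for, and so did the background. When the 3xTg list was shortened to as many peaks as the WT list, 1 of 12 member peaks was 3xTg-only, against 31.9% of all 3xTg peaks. When the lowest value of the 3xTg list was applied to both, 14 of 18 were, against 81.4%, and 0 of 4 WT peaks were WT-only, against 0.526%. With an overlap of 50% of each peak, 12 of 18 were 3xTg-only, against 64.9%, and 6 of 12 WT-only, against 40.8%.

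In all 11 overlapping pairs the 3xTg value was higher, but this was also so for 99.5% of the 2489 pairs of the whole lists. The median ratio of 3xTg to WT fold enrichment was 1.70 for the members and 1.70 for all pairs, and within the group the ratio ranged from 1.31 at Glra1 to 2.47 at the intron 1 peak of Gabbr2. The top peak of Gabrb1 and the peaks at Chrm3, Chrnb2, Chrm4 and Gabrb2 lay between, at ratios of 1.46, 1.46, 1.59, 1.65 and 1.70. The 5 ratios over 2 belonged to Gabbr2 (2.00, 2.37 and 2.47), to the lower shared peak of Gabrb1 (2.08) and to Gabra4 (2.31).

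Gabbr2 was the 1 member with 3 such pairs. Of all 2489 pairs, 79.8% had a lower ratio than its intron 7 peak, 96.0% than its intron 1 peak and 94.0% than its start-site peak. A WT peak near 6 can pair only with a 3xTg peak of at least 8.50, which alone sets the lowest possible ratio at 1.38 for the Gabbr2 start-site peak and 1.41 for Gabra4. Among the 877 pairs with a WT value from 6 to 7 the median ratio was 1.71 and the upper quartile 1.95, and the 4 member pairs in that range had a median of 2.34. The 2 member pairs with a WT value from 7 to 8 had a median of 1.83, against 1.68 over all pairs. At higher WT values the members stood below all pairs, with 1.58 against 1.70 from 8 to 10 (2 member pairs), 1.59 against 1.75 from 10 to 15 (1 pair) and 1.38 against 1.62 from 15 upward (2 pairs). With 1 list per genotype this difference was not tested. Summits of the member pairs lay a median of 30 bases apart, beside 33 over all pairs. Wider 3xTg peaks were a trait of the whole lists, with a median width ratio of 1.65 over all pairs and 1.83 for the members.

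The peaks of the 34 genes were searched for the RE1 element. It was scored against its 20-base consensus, with left arm GGNGCTGTC (A or C at the N) and right arm TGGTGCTGA around the bases CA, on both strands and anywhere in the peak. Matches with up to 5 mismatches were counted as sites. A site was found in 5 of the 18 3xTg member peaks, against 6.09% of all 3xTg peaks and 1.91% of windows of the same widths 10 kb downstream. In WT it was found in 4 of 12 member peaks, against 7.09% of all WT peaks and 1.29% of the windows. With a fold enrichment over 10 it was found in 2 of 3 WT member peaks. At the common lowest value of 8.50 it was found in 2 of 4. Shares of all WT peaks with a site at these limits are not given here.

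All 5 sites lay in start-site peaks. Of the 6 start-site peaks in 3xTg, those of Glra1, Chrnb2, Gabbr2, Chrm4 and Gabrd held a site, while 8.66% of all 3xTg start-site peaks did. Chrm1 was the exception, with 9 mismatches at best. Of the 12 member peaks deeper in gene bodies none held a site, which is near the background of 3.8% of all such 3xTg peaks. Their closest matches had 7 to 9 mismatches, and the median over the downstream windows was 8.0. The high intronic peak of Gabrb1 was among them, and in 3xTg the median fold enrichment was 13.7 for the start-site peaks and 13.6 for the others. In WT it was 9.79 for the 4 start-site peaks and 7.28 for the 8 others.

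**Figure D3:**
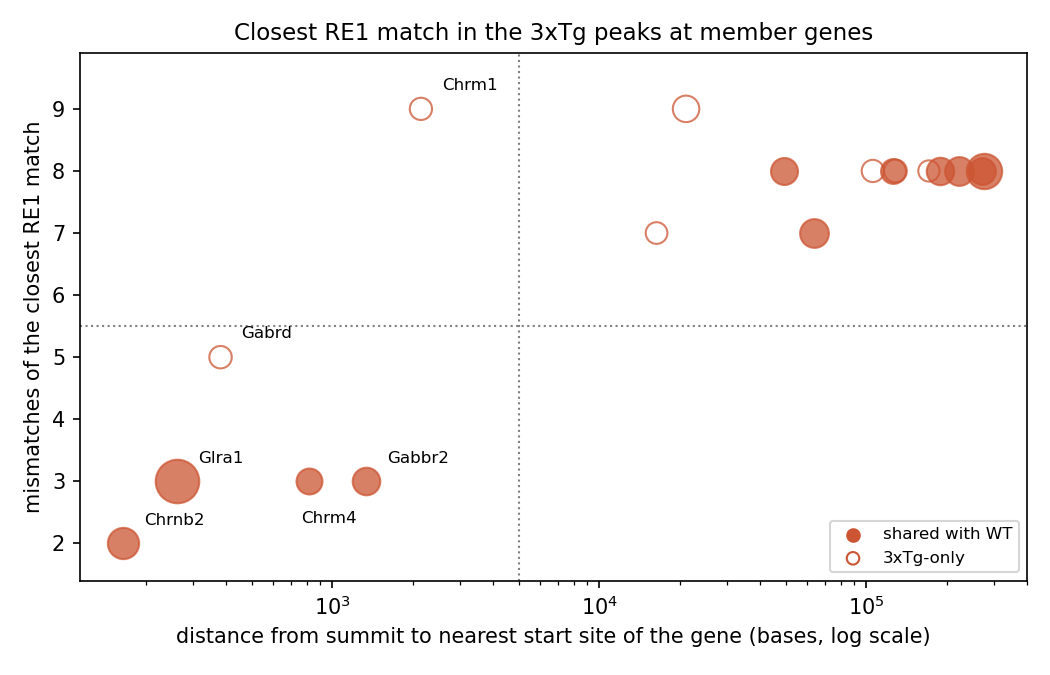
Mismatches of the closest RE1 match (y axis) against the distance from the summit to the gene's nearest start site (x axis, bases, log scale) for the 18 3xTg peaks at the members; symbol area follows fold enrichment, filled symbols overlap a WT peak, and dotted lines mark 5 kb and the limit of 5 mismatches. The 5 peaks with a site all lie within 5 kb of a start site, and the peaks beyond have 7 to 9 mismatches.

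The sites are printed because all of them lay in start-site peaks, with capitals for the bases that match the consensus, read 5′ to 3′ on the strand named, from the mm10 genome.
Chrnb2, chr3:89764454-89764473, plus strand, 2 mismatches: aGCGCTGTCCgTGGTGCTGA
Glra1, chr11:55607938-55607957, minus strand, 3 mismatches: GaCGCTcTCCgTGGTGCTGA
Chrm4, chr2:91921333-91921352, plus strand, 3 mismatches: GGgGCTGTCCgaGGTGCTGA
Gabbr2, chr4:46993029-46993048, minus strand, 3 mismatches: GGAGCTGTCCAaGGTaCTGc
Gabrd, chr4:155397681-155397700, minus strand, 5 mismatches: tcCGCcGTCCtcGGTGCTGA
The centre of each site lay close to the 3xTg summit: 4 bases away at Chrnb2, 12 at Glra1, 27 at Chrm4, 10 at Gabbr2 and 3 at Gabrd. In Chrnb2 and Glra1 the site lay in the untranslated part of exon 1 and its right arm matched in full. In Gabbr2, where the site lay upstream of the start, the left arm matched in full and the right arm had 3 mismatches. The Chrm4 site was likewise upstream, and the Gabrd site was in intron 1.

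The closest matches in the intronic peaks of Gabbr2 looked different, and are given for contrast.
Gabbr2, chr4:46770136-46770155, minus strand, 8 mismatches: aGAGtTGTCggTtcTGaTGc
Gabbr2, chr4:46929037-46929056, minus strand, 7 mismatches: GcCGgTGaCtggGGTaCTGA
At the intron 7 peak this best match lay 37 bases from the summit, and at the intron 1 peak 860 bases. Within 200 bases around the summit neither peak had a match better than 8 mismatches. No match says only that these letters are not in the window.

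Base composition was compared between the same groups of peaks. Over the 200 bases around the summit, the 6 start-site peaks in 3xTg had a median GC content of 60.5%, from 49.5% at Chrm1 to 70.5% at Chrnb2. The 12 others had a median of 39.2%, from 34% at Chrm3 to 49.0% at the top Gabrb1 peak. Over the whole 3xTg list the medians were 55.5% for start-site peaks and 44.0% for those in gene bodies. Most of the summit windows at the members, 14 of 18, held no base masked as repeat, and over the whole list 2766 of 5077 held none.

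Close RE1 matches were also present at members without a peak, which was seen when whole gene bodies with 5 kb on either side were searched for at most 3 mismatches. Such a match was found at 9 of the 34 genes, against 3.01% of all RefSeq genes, which are shorter and so offered less sequence to search. The 9 genes shared 9 distinct matches, since Gad1 had a pair of them and Chat and Slc18a3 the same one. Peaks covered 4 of the 9 matches in both lists, those of Chrnb2, Glra1, Chrm4 and Gabbr2. Over the genome a WT peak covered 12.3% and a 3xTg peak 14.4% of the 1214 matches of this quality. With 2 mismatches, 1 of 3 member matches was covered in each list, against 17.8% in WT and 21.0% in 3xTg of the 276 over the genome. With 3 mismatches, 3 of 6 were covered in each list, against 10.1% and 11.7% of 892.

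The uncovered matches are shown because they are as close to the consensus as the covered ones; these genes were chosen for display after their values were seen.
Gad1, chr2:70559698-70559717, plus strand, 2 mismatches: GGCGCTGTCCtcGGTGCTGA
Chrm2, chr6:36479208-36479227, minus strand, 2 mismatches: GaAGCTGaCCATGGTGCTGA
Glra3, chr8:55940760-55940779, plus strand, 3 mismatches: GGAGCTGTCtgaGGTGCTGA
Chat and Slc18a3, chr14:32467782-32467801, plus strand, 3 mismatches: GGAaCTGTCCgTGGTGCTGg
Gad1, chr2:70605371-70605390, minus strand, 3 mismatches: GGCtCTcTCCATGGTGCTaA
The better Gad1 match lay 2421 bases upstream of the start site, and the nearest 3xTg peak was 101077 bases away. In Glra3 the match lay in the untranslated part of exon 1, 352 bases from the start site, a place like that in Glra1. The Chat match lay 1883 bases upstream of Chat and 2942 bases upstream of Slc18a3, with the nearest 3xTg peak 129290 bases away. In Chrm2 it lay in intron 2, and the other Gad1 match lay beyond the end of the gene. A peak at such a match below the lowest value of each list would not be seen here.

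Other genes of these pathways were counted in the same way. Of 41 further genes for subunits, transporters, enzymes and accessory proteins, with a median length of 27.3 kb, 3 had a WT peak and 3 a 3xTg peak, 7.32% in each list, beside 9.3% and 14.2% of all RefSeq genes. Whether they differ from the 34 genes was not tested. Slc12a5 encodes the neuronal chloride exporter that makes GABA inhibitory. It had a shared peak 698 bases downstream of its start, chr2:164966288-164969913, with 19.9 in 3xTg and 13.9 in WT. A 3xTg-only peak followed in intron 7, chr2:164979747-164980550, with 9.59. Unlike the peaks of the 34 genes that lay in gene bodies over 5 kb from a start site, that peak held an RE1 site, and the sites of both peaks had 3 mismatches.
Slc12a5, chr2:164968649-164968668, plus strand: GGCGCTGTCCAcGGTtCTGg
Slc12a5, chr2:164979935-164979954, plus strand: GctGCTGTCCgTGGTGCTGA
Slc12a2, the gene for the chloride importer, had a shared peak in intron 1 with 16.2 in 3xTg and 6.62 in WT and no RE1 site. Chrnb1, a nicotinic subunit gene of muscle, had a 3xTg-only peak at its start with 8.93. Nlgn2, which encodes an adhesion protein of inhibitory synapses, had a WT-only peak at 6.11, and the start site nearest to it was that of Tmem256.

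Glutamate receptor genes were taken as a list of excitatory counterparts. A WT peak was found at 4 of 26 (Gria2, Grin1, Grin2a and Grm8, named after their values were seen), 15.4%, and a 3xTg peak at 8 of 26, 30.8%. The inhibitory and cholinergic genes had 26.5% and 38.2%, and all RefSeq genes 9.3% and 14.2%. Whether the lists differ was not tested. The glutamate receptor genes were longer, with a median of 298 kb against 53.5 kb.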

How the data were processed

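The authors immunoprecipitated REST from pooled cortex, sequenced the libraries as single-end reads and aligned them to mm10. Their methods name STAR, and their processing notes name both STAR 2.7.0a and BWA. The authors called peaks with MACS and deposited 1 peak list per genotype with all 4 replicates pooled. In the deposited lists each peak has a fold enrichment, which is a ratio over local background, a −log10 q-value and a summit offset. Their stated filter, fold enrichment over 5 and q under 0.01, removes none of the deposited peaks.

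Peaks on chromosome Y, 4 in WT and 9 in 3xTg, were not used. Gene spans and start sites came from curated RefSeq transcripts of GRCm38.p6 (mm10), and introns were numbered in the longest one. Peaks sharing at least 1 base were called shared, and where several WT peaks overlapped a 3xTg peak the highest was used. No test was made, because each genotype has 1 list. Sequences were read from the RefSeq genome.

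Members and lists were chosen with earlier results of these data known. Every member is named, with position and fold enrichment where it has a peak. Of the other pathway genes, at most the 6 with the highest 3xTg fold enrichment were to be named. RE1 sites with at most 5 mismatches in member peaks are printed, with the closest match of strong peaks lacking one, of which 1 is not reported here. Nlgn2, the Slc12a5 sequences, gene lengths, base composition and uncovered matches were added after values were seen.

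The alternatives included limits of 10 on fold enrichment and of 1e-05 on q, equal list sizes, summits in place of peaks, predicted transcripts, 1 kb around start sites, 50% overlap, at most 4 or 6 mismatches, 200 bases around the summit, protein-coding genes alone, and chromosome Y kept. A common lowest fold enrichment was added after the data were seen. Python 3.11.15, pandas 2.3.3, numpy 2.4.6, pysam 0.24.0, samtools 1.23.1, bedtools 2.31.1 and matplotlib 3.10.9 were used, and the scripts were tested on planted sites and intervals.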

Additional observations from a re-analysis of the deposited data

How the results depend on the processing

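Of 79 alternative values for 13 results, 61 stayed within 1.5 times the reported value and 18 moved by more. Not all of the 61 were free to move. The q limit removed no peak. Equal list sizes left the WT list as it was, and the common lowest value left the 3xTg list as it was. The tally therefore does not measure how stable the results are. With fold enrichment over 10 in both lists, 3 members had a WT peak (1.91% of all genes did) and 2 a WT start-site peak (1.21%). At that limit 3 members had a peak in both lists and 3 member peaks were shared. None was WT-only (0.669% of all WT peaks were), and 2 WT peaks held an RE1 site. The 3xTg list's lowest value, 8.50, was also applied to both lists, a limit chosen after the data were seen. There 4 members, Chrnb2, Gabrb1, Gabrb2 and Glra1, had a WT peak (3.01% of all genes did) and 2 a WT start-site peak (1.91%). At 8.50, 4 members had a peak in both lists and 4 member peaks were shared. Another 14 were 3xTg-only (81.4% of all 3xTg peaks were) and 0 WT-only (0.526% of all WT peaks). An RE1 site was held by 2 WT peaks. With as many 3xTg peaks as WT peaks, the highest 3006 by fold enrichment, 9 members had a 3xTg peak (8.82% of all genes did), as many as in WT. Then 1 member peak, that in Gabrg3, was 3xTg-only (31.9% of all 3xTg peaks were). When shared peaks had to cover 50% or more of each other, 5 members held a shared peak and 6 member peaks were shared. Then 12 were 3xTg-only (64.9% of all 3xTg peaks were) and 6 WT-only (40.8% of all WT peaks). The median width was 611.5 bases in WT and 937.0 in 3xTg. Under these alternatives no share is given of all genes with a peak in both lists or with a shared peak, or of all peaks with an RE1 site. The counts of 3xTg-only peaks thus moved in both directions with the limits set, from 1 to 14. The q limit of 1e-05 changed no value, since the lists hold no q that high. The lists used here pool each genotype's 4 replicates, so no paired analysis of them was possible and no replicate could be left out. The paper's own comparison of the genotypes, made with DiffBind, was not repeated. The depth of the libraries was not analysed here, and binding below their lowest values, 6.003 in WT and 8.50 in 3xTg, is not in them.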
